A study of Mus musculus with 4 samples.

Results

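The genes examined here were 9 that define GABAergic interneurons, the inhibitory nerve cells of the hippocampus, and each was found by its name among the 29300 genes of the count table. They were Gad1, Gad2, Slc32a1, Pvalb, Calb1, Calb2, Reln, Lhx6 and Dlx1. All 9 passed the filter on low counts and were among the 17144 genes tested. Hippocampal RNA was compared between 2 control mice and 2 PND mice (mice of the perioperative neurocognitive disorder model), all male C57BL/6 wild-type animals aged 7 to 8 months. Control mice (labelled sham) received isoflurane anesthesia and tramadol analgesia, and PND mice (labelled surgery) received both and an open fracture of the tibia that was fixed with an intramedullary nail. Tissue was taken on day 1 after the procedure, so that the comparison is of the fracture on top of an anesthesia and analgesia that both groups shared, at 1 time. The labels do not tie a library to a separate cage or litter, and p-values measure the spread between these 4 libraries only.

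Interneurons make up the smaller share of hippocampal neurons and restrain the excitatory pyramidal and granule cells. They synthesize gamma-aminobutyric acid (GABA) from glutamate by glutamate decarboxylase, whose isoforms GAD67 and GAD65 are encoded by Gad1 and Gad2. The vesicular transporter encoded by Slc32a1 (VGAT) loads GABA into synaptic vesicles. Interneuron classes are told apart by calcium-binding proteins such as parvalbumin (Pvalb), calbindin (Calb1) and calretinin (Calb2) and by the secreted protein reelin (Reln), while the homeobox factors encoded by Dlx1 and Lhx6 direct their development. Some of these genes are also used elsewhere in the hippocampus. Calb1 is abundant in dentate granule cells and in many CA1 pyramidal cells, Calb2 in mossy cells and immature granule cells, and Reln in Cajal-Retzius cells.

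In PND mice, Pvalb, Calb1 and Gad2 were higher and Slc32a1 was lower than in control mice, while Gad1, Calb2, Reln, Lhx6 and Dlx1 did not pass the test. Thus 3 of the 9 genes were called higher, where 13.1% of all genes tested were, and 1 of the 9 was called lower, where 12.8% were. A call is an adjusted p under 0.05 by edgeR's quasi-likelihood test. Of the 4 genes, Pvalb alone also passed the fold change of 1.5 that defines a differentially expressed gene (DEG), with 6.75% of all genes being higher DEGs and 2.25% lower DEGs. Both PND mice lay outside the values of both control mice in 7 of the 9 genes, against 65.5% of all genes tested. The median log2 fold change of the 9 genes was 0.15, beside 0.01 over all genes tested, and the median standard error (SE) over all genes was 0.14. The median of the 9 genes was 0.05 without the first PND mouse, 0.07 without the second control mouse and 0.04 with the correction for transcript length and GC content that is applied further on.

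The opening of the coding sequence is shown for Slc32a1, Gad2 and Pvalb, which were called, and for Gad1, because the fold changes described here moved with the base composition of the transcripts. Each line holds the first 150 coding bases, 5′ to 3′, from the GENCODE M21 transcript on GRCm38 (the assembly also named mm10), and the capitals mark every G or C.
Slc32a1: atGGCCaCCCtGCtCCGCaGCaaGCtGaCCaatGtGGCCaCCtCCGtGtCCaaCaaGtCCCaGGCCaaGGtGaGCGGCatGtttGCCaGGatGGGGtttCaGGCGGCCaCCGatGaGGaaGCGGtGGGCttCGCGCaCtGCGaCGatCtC
Gad2: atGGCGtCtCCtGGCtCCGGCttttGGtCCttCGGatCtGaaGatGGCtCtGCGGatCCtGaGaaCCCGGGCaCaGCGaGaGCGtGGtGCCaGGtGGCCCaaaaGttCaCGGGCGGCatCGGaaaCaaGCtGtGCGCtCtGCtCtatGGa
Gad1: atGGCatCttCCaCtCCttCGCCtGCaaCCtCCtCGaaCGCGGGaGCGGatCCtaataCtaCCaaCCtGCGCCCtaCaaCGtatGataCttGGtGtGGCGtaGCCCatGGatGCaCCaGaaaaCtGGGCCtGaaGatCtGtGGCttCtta
Pvalb: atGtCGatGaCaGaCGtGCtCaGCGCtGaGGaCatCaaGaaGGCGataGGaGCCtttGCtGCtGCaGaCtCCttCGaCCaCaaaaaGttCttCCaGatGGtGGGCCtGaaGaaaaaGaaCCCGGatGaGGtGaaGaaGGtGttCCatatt
The stretch of Slc32a1 lies in 1 exon at chr2:158611242-158611391 on the plus strand. Those of Gad2 (chr2:22622663-22623702, plus strand) and Gad1 (chr2:70563832-70572713, plus strand) run over 3 exons each. That of Pvalb (chr15:78202565-78204145, minus strand) runs over 2 exons. G or C stands at 95 of the 150 bases shown for Slc32a1, 91 for Gad2, 81 for Gad1 and 75 for Pvalb. In this order Gad2, which was called higher, stood next to Slc32a1, which was called lower, so these bases alone do not follow the fold changes. Over the whole coding sequence, Calb1 included, the order was different, with 61.4% for Slc32a1, 50.5% for Pvalb, 50.3% for Gad1, 49.1% for Gad2 and 43.1% for Calb1. At the third position of codons, G or C stood in 84.6% of the codons of Slc32a1 and in 50.8% of those of Calb1. The 3′ untranslated region is 3301 bases long in Calb1, with a GC content of 33.7%, and 3528 bases long in Gad2, with 39.1%. That of Slc32a1 has 744 bases and a GC content of 55.8%. The transcripts of Slc32a1 and Calb1 therefore lie at the opposite ends of the GC range of the 9 genes, and most of the low GC content of Calb1 and Gad2 is in their 3′ untranslated regions.

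Gad1 (chromosome 2, 70553072 to 70602014, plus strand), which encodes the GABA-synthesizing enzyme found through the whole cell, had 6703 and 7338 counts in the control mice against 6446 and 5813 in the PND mice. Scaled to a common library size (CPM) this was 389.1 and 401.5 CPM in the control mice against 404.2 and 344.4 CPM in the PND mice. The control values lay between those of the PND mice, and the log2 fold change was -0.08 (SE 0.08, edgeR adjusted p = 0.53). Gad2 (chromosome 2, 22622205 to 22693874, plus strand), the isoform concentrated at nerve terminals, had 146.9 and 139.1 CPM in the control mice against 193.0 and 163.8 CPM in the PND mice. Both PND mice were above both control mice, by a log2 fold change of 0.32 (SE 0.09, edgeR adjusted p = 0.044). The call was lost without the first control mouse (0.35, edgeR adjusted p = 0.066), without the second control mouse (0.28, adjusted p = 0.15) and without the first PND mouse (0.18, adjusted p = 0.17).

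Slc32a1 (chromosome 2, 158610767 to 158615748, plus strand) had 1316 and 1412 counts in the control mice against 953 and 899 in the PND mice. It stood at 76.8 ± 0.60 CPM in the control mice and 56.5 ± 4.59 CPM in the PND mice (SD, n = 2 mice per group), and the groups did not overlap. The log2 fold change was -0.44 (SE 0.08, edgeR adjusted p = 0.012), and it was called lower without any 1 of the 4 mice. Its exons overlap those of Gm14205 on the opposite strand over 697 bases, and 22.95% of its 75 nt windows also occur in that gene. How the counting treated strand is not given in the sources used here, so reads of this pair cannot be told apart, and Gm14205 was not analysed here. Both Slc32a1 and Gad2 lost their call when the dependence of the counts on transcript length and GC content was removed, with log2 fold changes of -0.07 (edgeR adjusted p = 0.62) and 0.04 (adjusted p = 0.84).

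**Figure D1:**
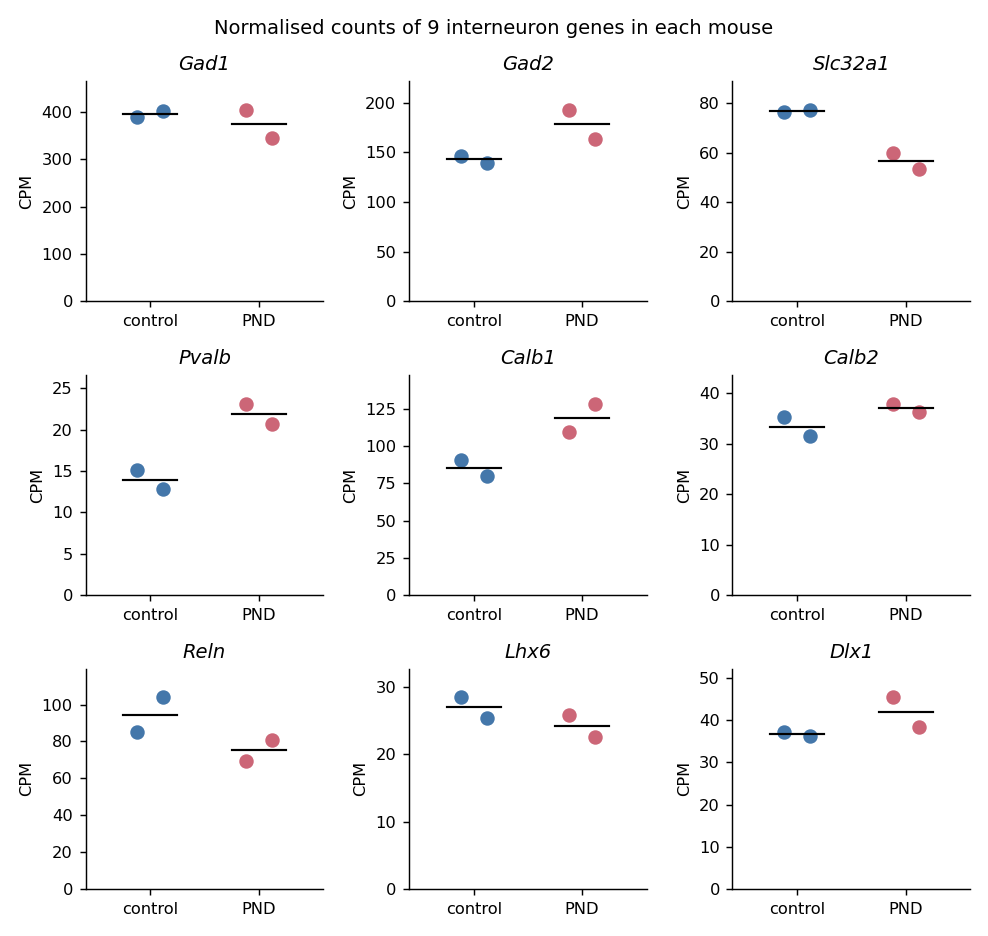
Normalised counts (CPM) of the 9 genes in each mouse, on axes that start at 0. Each point is 1 mouse and each line the mean of the 2 mice of a group. The PND mice lie above both control mice for Pvalb, Calb1 and Gad2 and below both for Slc32a1, and the groups overlap for Gad1 and Lhx6.

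Among the genes of calcium-binding proteins, Pvalb had the largest log2 fold change. Parvalbumin marks fast-spiking basket and axo-axonic cells, which fire on the cell bodies and initial axon segments of pyramidal cells. Pvalb (chromosome 15, 78191114 to 78206400, minus strand) had 260 and 234 counts in the control mice against 369 and 349 in the PND mice. The level was 13.95 ± 1.62 CPM in the control mice and 21.9 ± 1.74 CPM in the PND mice (SD, n = 2). The lowest PND value, 20.7 CPM, lay above the highest control value, 15.1 CPM. The rise was 1.57-fold, a log2 fold change of 0.65 (SE 0.13, edgeR adjusted p = 0.017). It was smallest without the second control mouse, at 0.53, where the call was lost (edgeR adjusted p = 0.070). None of its 75 nt windows occur in another gene.

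Calb1 (chromosome 4, 15881264 to 15908064, plus strand) had 90.5 and 80.2 CPM in the control mice against 109.8 and 128.7 CPM in the PND mice. Both PND mice were above both control mice, by a log2 fold change of 0.48 (SE 0.10, edgeR adjusted p = 0.017). Without the second control mouse it was 0.40 and not called (edgeR adjusted p = 0.060). Since granule cells and pyramidal cells share this gene with interneurons, its level cannot be assigned to interneurons in whole tissue. Calb2 (chromosome 8, 110137502 to 110168210, minus strand) had 35.2 and 31.5 CPM in the control mice against 37.9 and 36.2 CPM in the PND mice, which do not overlap but lie close together. Its log2 fold change was 0.15 (SE 0.09, edgeR adjusted p = 0.29).

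Reln (chromosome 5, 21884454 to 22344702, minus strand) encodes a large extracellular protein that guides neuronal migration in development and acts at synapses in the adult. Its counts were 1465 and 1900 in the control mice against 1110 and 1365 in the PND mice, or 94.5 ± 13.4 and 75.2 ± 7.97 CPM (SD, n = 2 mice per group). The values did not overlap, but the control mice differed from each other by about as much as the groups did. The log2 fold change of -0.33 (SE 0.12) did not pass the test (edgeR adjusted p = 0.089), and it was -0.47 without the first control mouse (adjusted p = 0.024) and -0.18 without the second (adjusted p = 0.33). Its exons overlap those of Gm10475 on the opposite strand over 246 bases, a gene with at most 2 counts in any mouse.

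Lhx6 (chromosome 2, 36081953 to 36105408, minus strand) encodes a factor of the interneurons that arise in the medial ganglionic eminence, among them the parvalbumin and somatostatin cells. It had 28.5 and 25.4 CPM in the control mice against 25.8 and 22.6 CPM in the PND mice. The groups overlapped, with a log2 fold change of -0.15 (SE 0.12, edgeR adjusted p = 0.37). Gm27953, which shares 104 exon bases with it on the same strand, had at most 1 count in any mouse. Dlx1 (chromosome 2, 71528113 to 71533981, plus strand) encodes a factor needed for the survival of some interneurons, and had 37.2 and 36.2 CPM in the control mice against 45.4 and 38.3 CPM in the PND mice. Both PND values lay above the control values, the second by a small margin, and the log2 fold change of 0.19 (SE 0.10) did not pass the test (edgeR adjusted p = 0.23). Exons of the antisense gene Dlx1as overlap those of Dlx1 over 335 bases. Dlx1as had 56 and 33 counts in the control mice against 114 and 118 in the PND mice, and without known strand use the reads of this pair cannot be told apart.

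Per kilobase of exon, which allows levels of different genes to be set side by side, Gad1 was the most abundant transcript of the 9 in both groups. In the control mice it had 51.7 ± 1.14 CPM per kb (SD, n = 2), followed by Slc32a1 (27.5 ± 0.22), Gad2 (24.3 ± 0.93), Calb2 (19.1 ± 1.51), Calb1 (17.6 ± 1.49), Pvalb (13.4 ± 1.56), Dlx1 (6.79 ± 0.13), Lhx6 (5.61 ± 0.44) and Reln (3.98 ± 0.56). Of the neighbours in this order, the values of Calb2 and Calb1 overlapped between mice and those of the other pairs did not. In the PND mice the order began with Gad1 at 49.0 ± 5.53 CPM per kb (SD, n = 2), and went on with Gad2 (30.4 ± 3.52), Calb1 (24.6 ± 2.76), Calb2 (21.3 ± 0.70), Pvalb (22.2 and 19.9 in the 2 mice) and Slc32a1 (20.2 ± 1.64). The values of Calb2, Pvalb and Slc32a1 overlapped there. Slc32a1 thus stood second in the control mice and sixth in the PND mice, while Dlx1, Lhx6 and Reln kept the last places. The exon length is that of all annotated exons of a gene together, and where a tissue uses only part of them the level per kb is too low.

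Together the 9 genes held 0.0886% and 0.0893% of all counts in the control mice against 0.0980% and 0.0905% in the PND mice. The sum was 903.8 and 907.9 CPM in the control mice against 968.7 and 888.9 CPM in the PND mice, so that the control mice lay between the PND mice. Gad1 provided 43.1% and 44.2% of these counts in the control mice against 41.7% and 38.8% in the PND mice. In whole tissue, fewer cells of a type and less RNA per cell cannot be told apart, and neither can their opposites.

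A ratio of counts inside a library does not depend on how libraries are scaled to each other. Gad2 had 0.377 and 0.347 counts for each count of Gad1 in the control mice against 0.478 and 0.475 in the PND mice. This was a log2 difference of 0.40 between the group means, with SDs of 0.09 and 0.0043. Slc32a1 went the other way, from 0.196 and 0.192 counts per Gad1 count to 0.148 and 0.155, a log2 difference of -0.36. Pvalb went from 0.0388 and 0.0319 to 0.0572 and 0.0600 per Gad1 count, the largest of the log2 differences to Gad1, at 0.74. The ratio of Calb1 had a log2 difference of 0.56, that of Dlx1 of 0.27 and that of Calb2 of 0.24, all without overlap between groups. The ratios of Reln and Lhx6 overlapped, with log2 differences of -0.24 and -0.07. The exact two-sided permutation test of 2 mice against 2 cannot give a p below 0.33, which is what the ratios without overlap reached, so none of these differences could pass a threshold. The ratios were not corrected for GC content. With the length and GC correction the log2 fold changes of Slc32a1 (-0.07) and Lhx6 (0.10) were above that of Gad1 (-0.18), and that of Calb1 (-0.32) was below it, opposite to their ratios. Those of Gad2 (0.04), Pvalb (0.62), Dlx1 (0.40) and Calb2 (0.31) were above that of Gad1 and that of Reln (-0.255) below it, as in their ratios. The ratios to Gad1 other than that of Gad2 were chosen after the values had been seen.

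**Figure D2:**
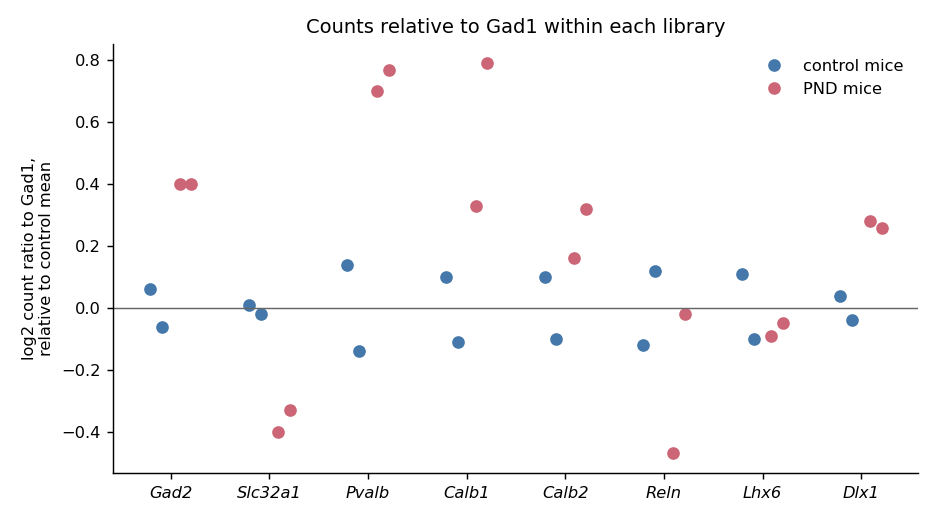
Counts of 8 genes relative to the counts of Gad1 in the same library, as log2 ratios set to 0 at the mean of the 2 control mice, with each point 1 mouse. The PND mice lie above both control mice for Gad2, Pvalb, Calb1, Calb2 and Dlx1 and below both for Slc32a1, and the groups overlap for Reln and Lhx6.

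The inhibitory genes were also set against Slc17a7, which encodes the vesicular glutamate transporter of excitatory neurons. The counts of Gad1, Gad2 and Slc32a1 together were 0.358 and 0.370 times those of Slc17a7 in the control mice against 0.504 and 0.438 times in the PND mice. The log2 difference of 0.37 was without overlap (exact two-sided permutation p = 0.33, the smallest possible). The denominator was lower, as Slc17a7 fell from 1710 and 1670 CPM in the control mice to 1300 and 1280 CPM in the PND mice (log2 fold change -0.39, SE 0.06, edgeR adjusted p = 0.0064). The transcripts of Slc17a7 and Slc32a1 are both rich in GC (56.6% and 61.9%). With the length and GC correction the log2 fold change of Slc17a7 was -0.12 and not called (edgeR adjusted p = 0.27). Over the 7 excitatory markers of the list, Slc17a7 included, 1 gene was called higher and 2 lower, beside 13.1% and 12.8% of all genes tested. The median log2 fold change of the 7 was 0.02. With the correction 0 of them were called, where 1.19% of all genes were called higher and 2.54% lower.

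The fold changes of all genes ran with the GC content of their transcripts, and the 9 genes were read against that trend. Across the 17120 genes with a known GC content, Spearman's rho between the log2 fold change and the GC content of the longest transcript was -0.63, a description across genes, which are not independent. When these genes were split into eighths by GC content, the median log2 fold change went from 0.59 in the lowest eighth to -0.34 in the highest. Calb1 (36.8% GC) was in the lowest eighth, where 50.1% of genes were called higher. Gad2 (44.1%) was in the second, where 30.9% were called higher and the median was 0.32, the same as its own fold change. Slc32a1 (61.9%) was in the highest eighth, where 38.4% of genes were called lower. Pvalb (49.3%) was in the fourth eighth, where 5.89% of genes were called higher and the median was 0.05, and it shared that eighth with Gad1 (47.3%). Calb2 (53.5%), Dlx1 (54.6%) and Lhx6 (56.2%) were above the medians of their eighths, which were -0.17 for that of Calb2 and -0.25 for that of Dlx1 and Lhx6. Reln (51.1%) was below the median of its eighth, -0.07.

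**Figure D3:**
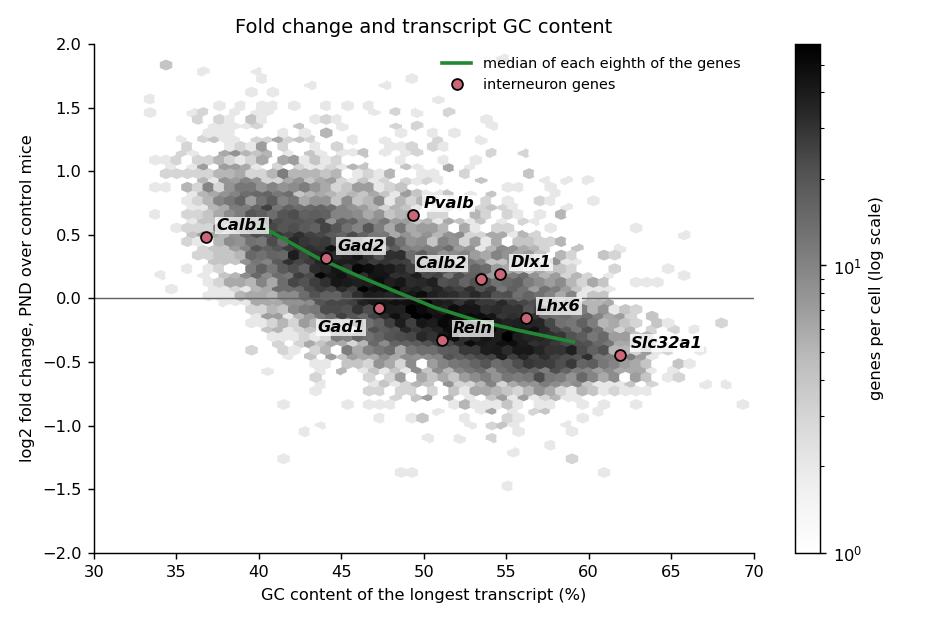
Log2 fold change of PND over control mice against the GC content of the longest transcript (%), with the genes tested as grey cells whose shade gives the number of genes on a log scale, and genes beyond the axes not drawn. The green line joins the medians of the eighths of the genes by GC content, from 0.59 to -0.34. Gad2 and Slc32a1 lie near the line, and Pvalb lies well above it. Calb1, at 0.48, lies below the median of its eighth, 0.59.

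When the dependence of the counts on transcript length and GC content was removed in every library, none of the 9 genes was called in either direction by edgeR's test, and 3 genes had an unadjusted p under 0.05 in the higher and 1 in the lower direction, beside 9.60% and 13.7% of all genes. Pvalb changed least, with a log2 fold change of 0.62 (edgeR adjusted p = 0.054). Calb1 turned to -0.32 (edgeR adjusted p = 0.060), and Gad2 and Slc32a1 went to 0.04 and -0.07 (adjusted p = 0.84 and 0.62). Dlx1 and Calb2 went to 0.40 and 0.31 (edgeR adjusted p = 0.095 and 0.13), Lhx6 to 0.10, Gad1 to -0.18 and Reln to -0.26. The correction lowered the calls over all genes to 204 higher and 435 lower, from 2249 and 2201. The share of counts from the mitochondrial genome, with its ribosomal RNA not counted in, also differed between the groups. It was 2.82% and 2.53% of a control library and 4.45% and 4.49% of a PND library. With the mitochondrial genome left out, 3 of the 9 genes were called higher and 1 lower, beside 13.1% and 12.9% of all genes. The median log2 fold change of the 9 genes was then 0.152, as with it. The part of GC content and of the mitochondrial share in the fold changes of the 9 genes was not tested beyond these values.

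**Figure D4:**
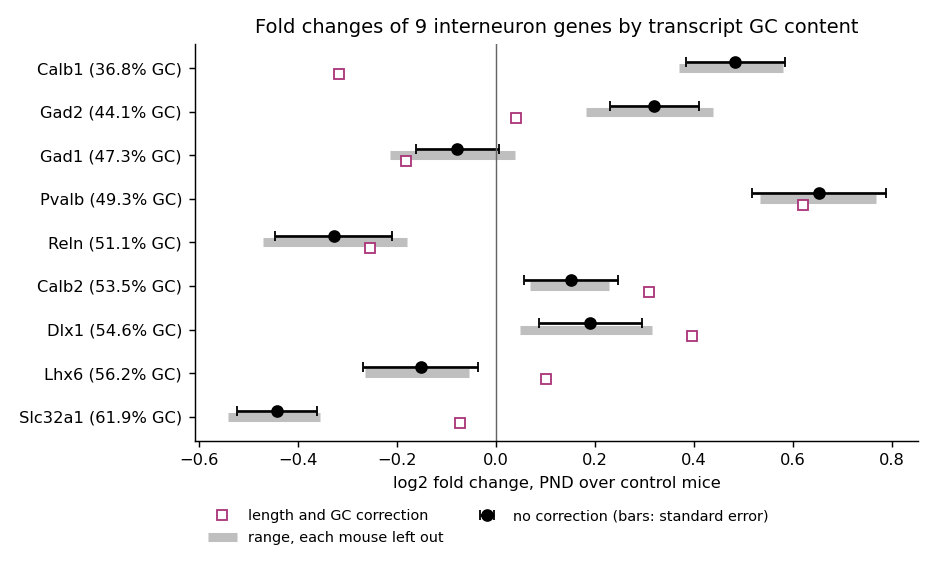
Log2 fold change of PND over control mice for the 9 genes, ordered from the lowest to the highest transcript GC content. Filled circles with bars give the fold change and its standard error, open squares the fold change with the length and GC correction, and grey bands the range over the fits that leave out 1 mouse. Pvalb stays at 0.62 with the correction, while Calb1 moves from 0.48 to -0.32 and Slc32a1 from -0.44 to -0.07.

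Genes that handle GABA after synthesis, or that build the inhibitory synapse on the receiving cell, were read from a list of 15. Of these, 2 were called higher, 3 lower and 10 neither, beside 13.1% and 12.8% of all genes tested, and the median log2 fold change was -0.01. The median ran from -0.0757 without the first PND mouse to 0.0345 without the second control mouse. Slc12a5 encodes KCC2, the potassium-chloride cotransporter that keeps chloride low in neurons, and went from 840 and 825 CPM in the control mice to 610 and 631 CPM in the PND mice (log2 fold change -0.42, SE 0.06, edgeR adjusted p = 0.0053). Nlgn2, an adhesion protein of inhibitory synapses, and Gabbr2, a subunit of the GABA-B receptor, had log2 fold changes of -0.46 and -0.42 (edgeR adjusted p = 0.0061 and 0.0067). Aldh5a1, an enzyme of GABA breakdown, went from 63.9 ± 1.07 to 77.7 ± 0.23 CPM (SD, n = 2), with a log2 fold change of 0.28 (edgeR adjusted p = 0.025). Its call was lost without any 1 of the 4 mice (edgeR adjusted p from 0.075 to 0.10). With the correction 0 of the 15 genes were called higher and 2 lower by edgeR's test, where 1.19% and 2.54% of all genes were, and 2 and 3 had an unadjusted p under 0.05, as did 9.60% and 13.7% of all genes. None of the 4 genes named here was called then, with log2 fold changes of -0.13 for Slc12a5, -0.12 for Nlgn2, -0.18 for Gabbr2 and 0.22 for Aldh5a1 (edgeR adjusted p from 0.11 to 0.32).

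Of 15 other transcription factors and related genes of interneurons, 14 were tested, and Nkx2-1 was left out by the filter with 8 and 10 counts in the control mice against 21 and 7 in the PND mice. In PND mice 2 were called higher and 0 lower by edgeR's test and also by DESeq2, beside 13.1% and 12.8% of all genes tested. At an unadjusted edgeR p under 0.05 1 was lower, as were 19.4% of all genes. The median log2 fold change was 0.29, and it was 0.01 without the first PND mouse, with 3 called higher and 1 lower (11.3% and 11.6% of all genes there), and 0.14 with the length and GC correction. Dlx6os1, a long noncoding RNA of the Dlx5 and Dlx6 locus, had 13.0 and 10.7 CPM in the control mice against 21.3 and 19.4 CPM in the PND mice, a log2 fold change of 0.78 (SE 0.14, edgeR adjusted p = 0.012). Maf had 18.3 and 18.7 CPM in the control mice against 24.2 and 31.6 CPM in the PND mice, a log2 fold change of 0.59 (SE 0.15, edgeR adjusted p = 0.029). Both were DEGs, and the GC content of their transcripts was 38.2% and 47.4%. With the correction Dlx6os1 went to 0.10 (edgeR adjusted p = 0.71) and Maf to 0.49 (adjusted p = 0.10). With the replicate number as a block as well, Maf was called higher (0.48, edgeR adjusted p = 0.029). The call of Maf was also lost without the first control mouse, the second control mouse and the second PND mouse (log2 fold changes 0.58, 0.60 and 0.39, edgeR adjusted p from 0.066 to 0.10). Satb1, the most abundant of the list by CPM, went from 89.5 ± 3.70 to 82.5 ± 2.48 CPM (SD, n = 2) and did not pass the test (log2 fold change -0.12, edgeR adjusted p = 0.26). With the correction its log2 fold change was -0.36 (edgeR adjusted p = 0.055, and 0.015 with the replicate number as a block). With the correction 0 of the 14 genes were called by edgeR's test, and 2 were higher and 1 lower at an unadjusted p under 0.05, beside 9.60% and 13.7% of all genes.

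Of 21 genes of interneuron subtypes and their surface, 2 were called higher, 6 lower and 13 neither, beside 13.1% and 12.8% of all genes tested, and the median log2 fold change was -0.31. The number called lower was 1 without the first control mouse, 2 without the second control mouse, 4 without the second PND mouse and 1 without the low count filter, where 9.62%, 6.75%, 7.54% and 4.61% of all genes were called lower. The median was -0.10 without the second PND mouse. Erbb4, the neuregulin receptor carried by many parvalbumin cells, rose from 55.6 and 61.6 CPM to 80.9 and 87.4 CPM (log2 fold change 0.52, SE 0.08, edgeR adjusted p = 0.0078). Ndnf, which marks neurogliaform cells and also Cajal-Retzius cells, rose from 17.9 and 16.1 CPM to 24.3 and 28.7 CPM (log2 fold change 0.64, SE 0.13, edgeR adjusted p = 0.015). The transcripts of both are poor in GC, at 40.6% and 41.5%, and with the correction their log2 fold changes were 0.02 and 0.20 (edgeR adjusted p = 0.90 and 0.34). The call of Ndnf was lost without the second control mouse (0.56, edgeR adjusted p = 0.059). Nos1, the neuronal nitric oxide synthase, went from 135 and 138 CPM to 101 and 112 CPM, and Cck, the neuropeptide of a class of basket cells and of many pyramidal cells, from 357 and 313 CPM to 267 and 230 CPM. Their log2 fold changes were -0.36 and -0.43 (edgeR adjusted p = 0.015 and 0.022), and -0.19 and -0.21 with the correction (adjusted p = 0.16 and 0.23). The call of Nos1 was lost without the second control mouse (edgeR adjusted p = 0.053) and that of Cck without the first (adjusted p = 0.056). The other 4 genes called lower, which were named after their values had been seen, were Kit (-0.32), Sst (-0.47), Htr3a (-0.61) and Lamp5 (-0.31), with edgeR adjusted p-values from 0.022 to 0.043. Without 1 of the 4 mice, Lamp5 lost its call in all 4 fits, and Kit and Htr3a lost theirs in 3 of 4. Sst, the peptide of a class of dendrite-targeting cells that also comes from the medial ganglionic eminence, had 288 and 258 CPM in the control mice against 221 and 172 CPM in the PND mice. Its call was lost without the first control mouse (-0.40, edgeR adjusted p = 0.082), without the second PND mouse (-0.30, adjusted p = 0.053) and with the correction (-0.28, adjusted p = 0.20). With the correction 0 of the 21 genes were called higher and 1 lower, Kit, by edgeR's test, and 0 and 7 passed at an unadjusted p under 0.05, beside 9.60% and 13.7% of all genes. With the replicate number as a block as well, 0 were called higher and 3 lower, beside 5.23% and 8.36% of all genes. These were Kit, Sst (-0.29, edgeR adjusted p = 0.014) and Cck (-0.205, adjusted p = 0.027).

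**Figure D5:**
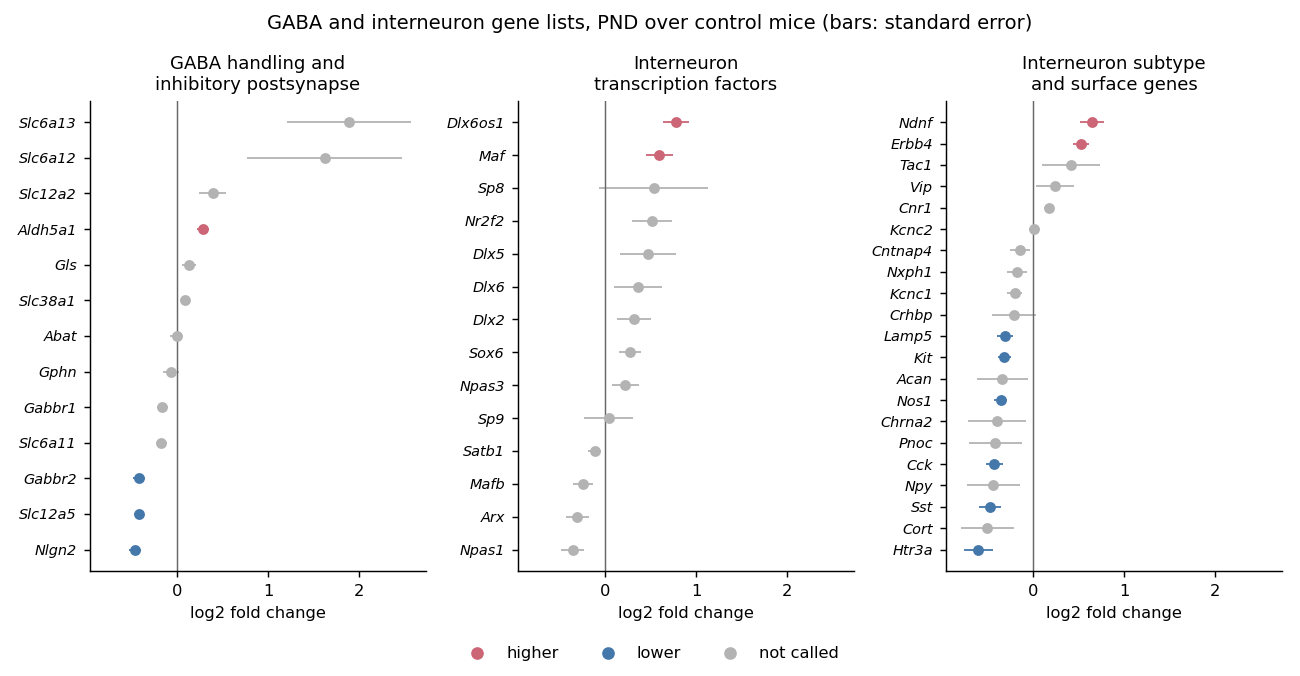
Log2 fold change of PND over control mice for the tested genes of the 3 lists of GABA handling, interneuron transcription factors and interneuron subtypes. Bars give the standard error, and color marks the call at an adjusted p under 0.05. Of the first list 13 genes are drawn. Called genes are found on both sides of 0 in the first and last lists (1 higher and 3 lower drawn, 2 higher and 6 lower), and on the higher side alone in the list of transcription factors (2 higher).

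The other cells that use these genes, and tissue next to the hippocampus, were checked by their markers, whose counts of calls are to be read beside 13.1% of all genes tested called higher and 12.8% lower, or 1.19% and 2.54% with the length and GC correction. Of 6 granule cell markers 0 were called by edgeR's test, with 1 higher and 1 lower by DESeq2. At an unadjusted p under 0.05 1 was higher and 1 lower, where 19.9% and 19.4% of all genes were. The lowest of the log2 fold changes of the granule cell markers was -0.41, the median 0.16 and the highest 0.48. When each mouse was left out, this median ran from 0.02 (second control mouse left out) to 0.42 (first control mouse left out). Of 4 markers of immature granule cells 3 were called higher, but only 1 with the correction and only 1 without the second control mouse, where 6.72% of all genes were called higher. Their summed level was 40.7 and 37.5 CPM in the control mice against 62.3 and 57.9 CPM in the PND mice. Of 3 tested markers of Cajal-Retzius cells and of 3 of mossy cells 1 each was called higher. The Cajal-Retzius markers summed to 8.36 and 9.19 CPM in the control mice and to more in both PND mice, up to 10.8 CPM, and the mossy cell markers to 47.3 and 53.4 CPM against 53.7 and 52.1 CPM. The call of the Cajal-Retzius marker was lost without either control mouse and without the first PND mouse. Of 4 markers each, 1 was higher and 1 lower for astrocytes, 0 were called for oligodendrocytes, 1 was higher for microglia and 2 were higher for endothelium. With the correction, 1 marker of endothelium was called and 0 of the mossy, Cajal-Retzius, excitatory, astrocyte, oligodendrocyte and microglia markers, in edgeR's test. The median log2 fold change of the 4 oligodendrocyte markers was -0.29 on all 4 mice. It was -0.63 without the first PND mouse and -0.0154 without the second.

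Striatum, whose projection neurons also express Gad1, Gad2 and Slc32a1, had 0 of 6 markers called. The summed levels of these markers were 77.1 and 112 CPM in the control mice against 79.9 and 85.3 CPM in the PND mice. The median log2 fold change of the striatum markers was -0.23, and ran from -0.25 to 0.0056 when each mouse was left out. Markers of thalamus and habenula had 0 of 6 called by edgeR's test (2 higher at an unadjusted p under 0.05), with summed levels of 73.2 and 75.3 CPM in the control mice against 91.7 and 86.7 CPM in the PND mice and a median log2 fold change of 0.40. The choroid plexus markers, led by Ttr, summed to 127 CPM in the first control mouse and to between 2030 and 5400 CPM in the other mice, and 0 of 5 were called. The median log2 fold change of these 5 markers was -0.16 on all 4 mice. It was -1.07 when the first control mouse was left out, and 2.91 when the second control mouse was left out. At an unadjusted p under 0.05, 0 markers of striatum, choroid plexus and oligodendrocytes passed edgeR's test on the 4 mice, and 0 were called by DESeq2. The part of these cells and tissues in the levels of the 9 genes was not tested.

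The 4 libraries held between 15763432 and 18573386 counts, and between 24238 and 25324 genes had a count. Replicates differed by more than counting noise, with a chi-square per degree of freedom of 12.3 between the control mice and 7.77 between the PND mice. The genes whose levels over the 4 mice lay closest to the mean profile of Gad1, Gad2 and Slc32a1 were Wdr61, B630019K06Rik, Cby1, Zfp622 and Dnajb1. Their distances on the centred log2 CPM scale ran from 0.009 to 0.023, and 275 of 15514 genes lay within 0.1. With 4 libraries such closeness is common and describes these libraries only.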

How the data were processed

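Poly(A) RNA of hippocampal tissue from 2 control and 2 PND mice was sequenced from both ends with a read length of 150 nt. After filtering, the authors aligned the reads to mm10 by HISAT, and they deposited raw read counts for every gene and mouse. The submitters' processing notes list HISAT2 2.1.0, Bowtie2 2.2.3, TopHat2 and HTSeq 0.6.0 without a role. The counting program and its use of strand are not given in the sources used here. The authors' own fold changes and p-values in the table were not used, and 0 per-sample columns were left out.

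Counts were filtered with edgeR's filterByExpr (minimum count 10), scaled by TMM (factors 0.982 to 1.02) and compared by the quasi-likelihood F test of edgeR 4.0.16 in R 4.3.3, with condition as the only term and Benjamini-Hochberg adjustment over the 17144 genes tested. The standard error is the size of the log2 fold change over the square root of F. Lengths, GC contents, overlaps and shared 75 nt windows came from GENCODE M21, in which 29238 of the identifiers were found, 93.2% of them with the same coordinates. Coordinates of genes are those of the deposited table. Length and GC trends were fitted by mgcv 1.9.3 (basis size 8) and entered as offsets. The procedure was tested on simulated counts.

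The 9 genes, the lists, the tests and the alternatives were chosen with earlier results of these data known. Besides the 9 genes, the most abundant tested gene of each list was to be named, together with its called genes, at most the 4 with the smallest p, and the 5 genes with the nearest profile among those of at least 1 CPM. The values of 2 genes of the list on GABA handling, which its counts and median include, and the sequence of Calb1 are not reported here. From the marker lists only genes that a result turned on are given. Alternatives were DESeq2 1.42.0 and its size factors, library totals, no filter, the replicate number as a block, length and GC correction, leaving out the mitochondrial genome and leaving out each mouse. Ratios of counts were compared by exact two-sided permutation.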

Additional observations from a re-analysis of the deposited data

How the results depend on the processing

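Slc32a1 was called lower in 10 of 12 alternatives, Pvalb was called higher in 10, Calb1 was called in 9 and Gad2 in 5 of 12, where Calb1 was called in the lower direction in 1. The number of genes called higher, 3, became 1 without the low count filter, where 4.49% of all genes were called higher. It was 0 with the length and GC correction (1.19% of all genes) and 1 with the fold change threshold (6.75%). The number called lower, 1, became 2 with the DESeq2 test, 2 with the replicate number as a block, 0 with the length and GC correction, 2 with that correction and the block, and 0 with the fold change threshold, and ran from 1 to 2 when each mouse was left out, with 2 without the first control mouse. The gene gained with DESeq2 and with the block was Reln. The median of the 9 genes was 0.0345 with the correction and the block, and 0.0475 to 0.204 when each mouse was left out. The log2 fold change of Gad1 ran from -0.214 to 0.0373 when each mouse was left out, and turned positive without the second PND mouse. With the correction, without and with the block, that of Calb1 turned to -0.317 and -0.318, and that of Lhx6 to 0.0995 and 0.0994. The cause was not tested.

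Deviations of same-numbered mice from their group means correlated at 0.328 over 12076 genes, but only 2 pairs exist and the labels tie the numbers to no shared litter, batch or day. With the block, 2653 genes were higher and 2626 lower. With the correction and the block, Pvalb (0.621, edgeR adjusted p = 0.0116), Dlx1 (0.391, 0.0209) and Calb2 (0.311, 0.0461) were called higher, and Calb1 (0.0162) and Reln (0.0301) lower. Over all genes, 1315 were higher and 1350 lower without the filter, 896 and 1434 with the correction and the block, and 1201 and 1207 without the second control mouse. Library totals alone moved the calls to 2649 higher and 1810 lower. Leaving out 1 mouse leaves its group with 1 mouse, whose spread is assumed to equal that of the other group. Each of the 9 genes had at least 234 counts in every mouse.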
